A study of Mus musculus with 36 samples.

Results

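The 10 genes *Ccnd1*, *Cdkn1a*, *Ccng1*, *Ccng2*, *Gadd45a*, *Gadd45b*, *Gadd45g*, *Btg1*, *Btg2* and *Mdm2*, a set of cell cycle and growth arrest genes, were followed in liver RNA of 36 mice. They were chosen by gene symbol from the 38283 genes of the count table, and all 10 passed the filter on low counts and were tested. The mice were 16-week-old males on a C57Bl/6J background, either wild-type (WT) or heterozygous for a *Pik3r1* allele in which a stop codon replaces a tyrosine codon near the end of the reading frame (WT/Y657*). *Pik3r1* encodes regulatory subunits of phosphoinositide 3-kinase (PI3K), the enzyme that relays the insulin signal. The allele was introduced in the germ line and is therefore carried by every cell type of the liver. Mice of each genotype had free access to chow, were deprived of food for 16 h, or were given chow again for 6 h after such a fast, with 6 mice in each of the 6 groups. Single mice are named as in the sample titles, where MT marks WT/Y657*.

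Cyclin D1, the product of *Ccnd1*, activates Cdk4 and Cdk6 and carries cells from G1 towards S phase, and p21, the product of *Cdkn1a*, inhibits cyclin-dependent kinases and holds cells in arrest. *Ccng1*, *Mdm2*, *Gadd45a* and *Btg2* are well-known targets of the tumour suppressor p53, Mdm2 being the ubiquitin ligase that removes p53 in return. *Cdkn1a*, *Ccng2*, *Gadd45a* and *Btg1* are also known targets of the FOXO factors, which insulin and PI3K keep out of the nucleus. Most hepatocytes of an adult mouse are quiescent, and several of these genes respond there to fasting, stress hormones and injury without any cell division.

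Total counts per mouse ranged from 8839488 to 19542775, with a median of 13596665.5. Levels are given as CPM, counts scaled to library size with TMM, and tests are edgeR's two-sided quasi-likelihood test with Benjamini-Hochberg adjustment over 13945 genes, with a gene called at an adjusted p under 0.05. The 7 hepatocyte markers summed to 46747 to 88911 CPM over the 36 mice, as liver should give. *Pik3r1* itself does not check the genotype labels, since the counts of both alleles are summed: it lay between 82.4 and 158 CPM in WT and between 74.5 and 182 CPM in WT/Y657* mice. Fasted and refed mice each came from a lower and a higher series of mouse numbers, with 3 mice of each genotype in each series, and fed mice carried numbers between these series. Feeding state and mouse number series therefore cannot be told apart in any comparison with fed mice. Among fed mice genotype nearly followed mouse number as well. In GENCODE M21 (GRCm38), *Ccnd1* (chr7:144929931-144939925, minus strand), *Cdkn1a* (chr17:29090976-29100727, plus strand) and *Gadd45a* (chr6:67035096-67037457, minus strand) each overlap 1 gene on the opposite strand, and strand-specific counting is not stated, so reads of the partner could be included. In bulk tissue, a change in the number of cells of a type and a change of RNA per cell cannot be told apart.

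Scaled to exon length, the averages over the 6 groups were highest for *Ccng1*, at 15.1 CPM per kb, followed by *Gadd45g* at 10.6 and *Btg1* at 9.27. *Mdm2* at 7.22 and *Ccnd1* at 6.95 CPM per kb lay in the middle, and their ranges of group means overlapped (5.97 to 8.17 and 4.75 to 9.09). *Btg2* was at 4.62, *Gadd45a* at 2.77, *Ccng2* at 2.48, *Gadd45b* at 1.69 and *Cdkn1a* at 1.41 CPM per kb. The group means of *Cdkn1a* ran from 0.1504 in refed WT to 5.72 CPM per kb in fasted WT/Y657* mice, the widest range of group means in proportion among the 10 genes, whereas those of *Ccng1* stayed between 13.8 and 17.4. At its lowest *Cdkn1a* rested on 3 counts in a mouse, and *Gadd45b* likewise, so single values at that end carry large counting error.

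**Figure D1:**
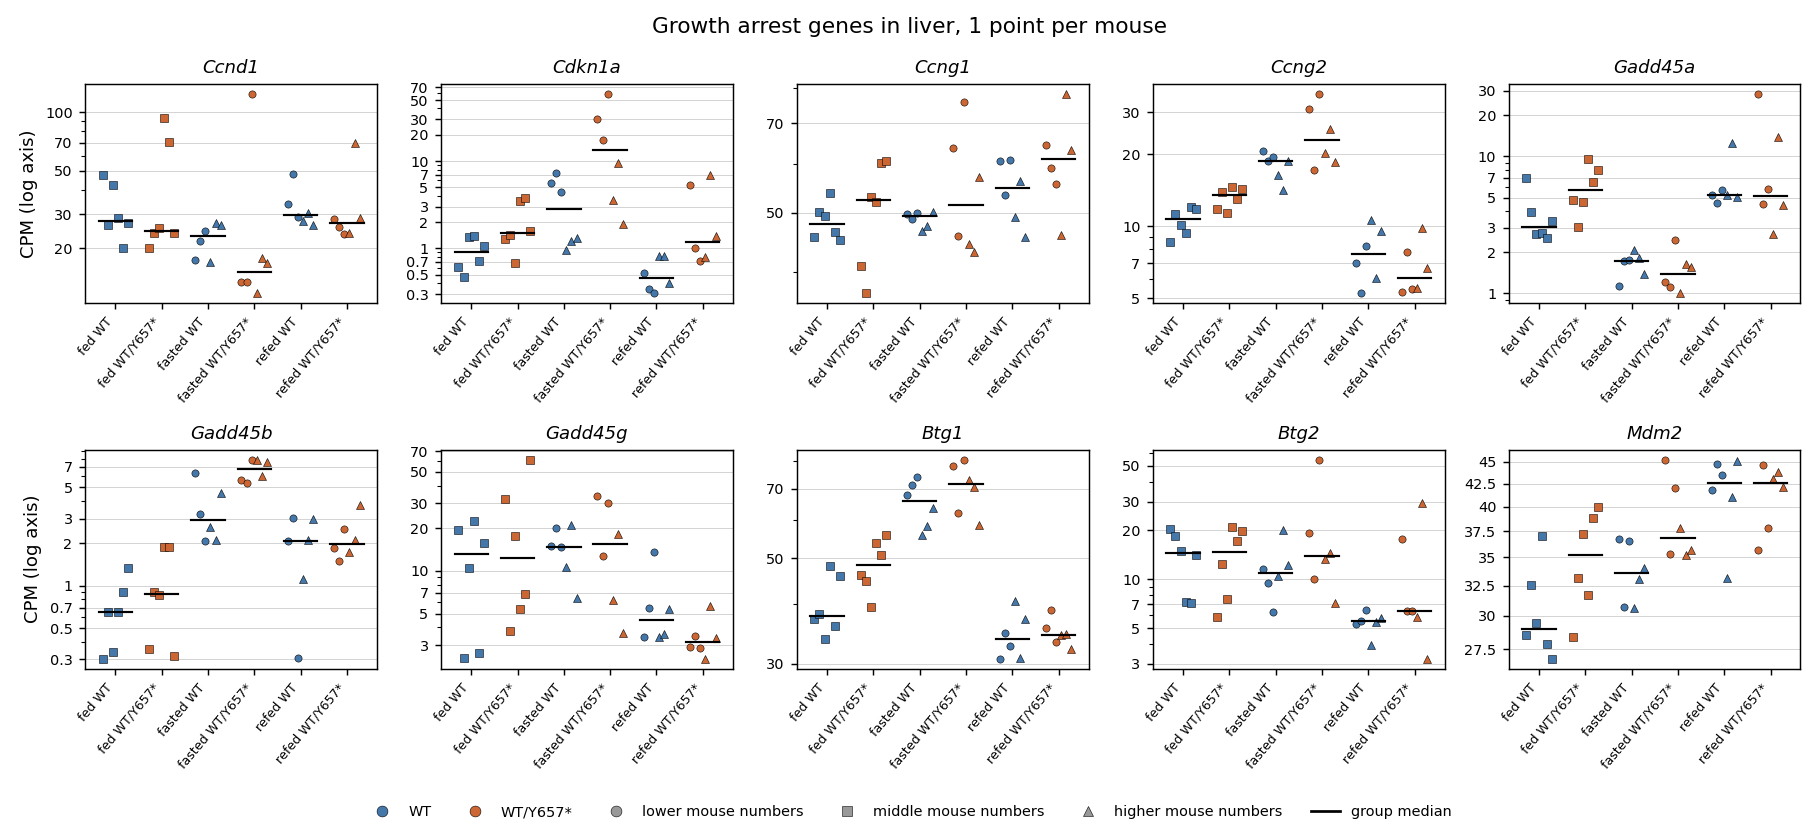
CPM of each of the 10 genes on log axes, with 1 point per mouse, 6 mice per group, colour for genotype, symbol for mouse number series and a bar at the group median. *Btg1*, *Ccng2* and *Gadd45b* stand higher and *Gadd45a* lower in fasted than in fed mice of either genotype, and single WT/Y657* mice reach 125 CPM for *Ccnd1* and 59.2 CPM for *Cdkn1a*.

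Promoters are shown for the 5 genes that were called both on fasting and on refeeding in WT/Y657* mice, and they differ in the motifs they hold. *Mdm2* and *Gadd45g*, called on refeeding in 1 genotype each but not on fasting, are not printed. RefSeq (GRCm38.p6) gave 10 promoter windows for 9 of the 10 genes, each of 250 bases before and 50 after a transcription start, and *Ccnd1* was not among them. Both strands were searched for the forkhead motif TGTTTAC, the E-box CACGTG, the cAMP response element TGACGTCA, the AP-1 motif TGANTCA, the TATA motif TATAAA, the CCAAT motif, the GC box GGGCGG, the CArG box and the p53 site, the last read as a pair of p53 decamers with up to 13 bases between them. Capitals mark matches, overlapping ones as a single run. *Cdkn1a* has 2 annotated starts, on the plus strand of chromosome 17:
Cdkn1a, upstream start, chr17:29090729-29091028, plus strand: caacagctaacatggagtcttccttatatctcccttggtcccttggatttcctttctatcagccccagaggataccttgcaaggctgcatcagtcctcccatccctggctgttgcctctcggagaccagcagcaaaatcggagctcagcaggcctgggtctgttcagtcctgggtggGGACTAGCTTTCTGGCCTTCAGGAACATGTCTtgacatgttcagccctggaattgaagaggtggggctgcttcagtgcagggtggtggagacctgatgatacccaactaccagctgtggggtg
Cdkn1a, downstream start, chr17:29093519-29093818, plus strand: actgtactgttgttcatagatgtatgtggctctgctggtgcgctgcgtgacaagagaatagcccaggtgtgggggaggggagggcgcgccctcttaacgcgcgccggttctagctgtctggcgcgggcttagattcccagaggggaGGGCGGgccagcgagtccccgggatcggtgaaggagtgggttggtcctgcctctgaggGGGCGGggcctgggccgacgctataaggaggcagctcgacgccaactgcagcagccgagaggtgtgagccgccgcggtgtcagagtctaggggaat
Btg1, chr10:96616751-96617050, plus strand: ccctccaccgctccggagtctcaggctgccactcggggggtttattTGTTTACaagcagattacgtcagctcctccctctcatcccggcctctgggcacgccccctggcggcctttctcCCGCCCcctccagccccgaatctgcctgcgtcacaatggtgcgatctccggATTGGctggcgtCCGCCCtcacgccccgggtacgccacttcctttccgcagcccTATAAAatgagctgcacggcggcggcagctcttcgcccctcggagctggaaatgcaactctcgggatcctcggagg
Gadd45b, chr10:80929841-80930140, plus strand: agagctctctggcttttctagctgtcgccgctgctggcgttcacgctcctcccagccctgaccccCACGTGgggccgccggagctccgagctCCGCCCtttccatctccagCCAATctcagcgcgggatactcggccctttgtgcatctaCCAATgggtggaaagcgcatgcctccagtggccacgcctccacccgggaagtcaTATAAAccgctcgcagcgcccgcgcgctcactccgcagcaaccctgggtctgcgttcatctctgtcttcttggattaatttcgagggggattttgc
Gadd45a, chr6:67037358-67037657, minus strand: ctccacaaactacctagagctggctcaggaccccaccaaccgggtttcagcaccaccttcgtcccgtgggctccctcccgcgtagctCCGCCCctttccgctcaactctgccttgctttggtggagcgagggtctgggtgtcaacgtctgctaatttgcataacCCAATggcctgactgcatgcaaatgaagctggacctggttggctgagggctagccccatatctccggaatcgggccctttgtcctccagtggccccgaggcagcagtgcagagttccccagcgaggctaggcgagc
Ccng2, chr5:93267323-93267622, plus strand: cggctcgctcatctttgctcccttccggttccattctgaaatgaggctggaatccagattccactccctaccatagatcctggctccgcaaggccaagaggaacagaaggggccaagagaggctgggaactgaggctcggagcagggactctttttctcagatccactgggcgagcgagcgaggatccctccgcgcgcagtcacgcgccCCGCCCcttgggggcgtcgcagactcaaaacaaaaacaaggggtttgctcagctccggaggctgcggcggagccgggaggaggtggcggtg

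The upstream *Cdkn1a* window held the only p53 site among the member windows, 32 bases long and beginning 73 bases before the start. Of all 32851 windows, 24 (0.0731%) held one. The forkhead motif was present at *Btg1*, beginning 204 bases before the start, and at *Mdm2*, against 3.65% of all windows, and it was not in the *Ccng2*, *Gadd45a* or *Cdkn1a* windows. The E-box was present at *Gadd45b* and *Gadd45g* (7.15% of all windows) and the cAMP response element at *Btg2* (1.79%). TATA motifs were found at *Btg1*, *Gadd45b* and *Gadd45g* (13.6%), CCAAT motifs at 7 genes (37.4%) and GC boxes at 7 genes (35.7%). Neither AP-1 motifs (7.81%) nor CArG boxes (1.63%) were found in a member window. These matches describe the letters of the windows and are not evidence of binding.

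Fasting was compared with the fed state in each genotype. In WT mice 4 of the 10 genes were called, *Btg1*, *Ccng2* and *Gadd45b* higher and *Gadd45a* lower, against 32% of all genes tested. In WT/Y657* mice 5 were called, the same 4 in the same directions and *Cdkn1a* higher, against 32.9% of all genes. With 10 genes these shares lie near that background, and nothing particular to the set is read from them. The median absolute log2 fold change over the 10 genes was 0.61 and 0.53, against 0.25 for all genes in either genotype.

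Refeeding was compared with the fasted state. Fasted and refed mice share the lower series of mouse numbers, but in the higher series they come from separate blocks. Here 5 members were called in WT mice, *Gadd45a* and *Mdm2* higher and *Btg1*, *Ccng2* and *Cdkn1a* lower, against 30.2% of all genes. In WT/Y657* mice 6 were called, *Gadd45a* higher and *Btg1*, *Ccng2*, *Cdkn1a*, *Gadd45b* and *Gadd45g* lower, against 31.3%. The median log2 fold change over the 10 genes was -0.88 in WT and -0.90 in WT/Y657* mice, and that of all genes was close to 0. Fasting and refeeding share the fasted mice, so opposite signs in the comparisons are not independent of each other.

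Refed mice differed from fed mice for 3 members in WT animals, *Gadd45b* and *Mdm2* higher and *Btg2* lower, against 27.5% of all genes. For WT/Y657* animals the count was 5, with *Gadd45b* and *Mdm2* higher and *Btg1*, *Ccng2* and *Gadd45g* lower, against 26.1%.

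**Figure D2:**
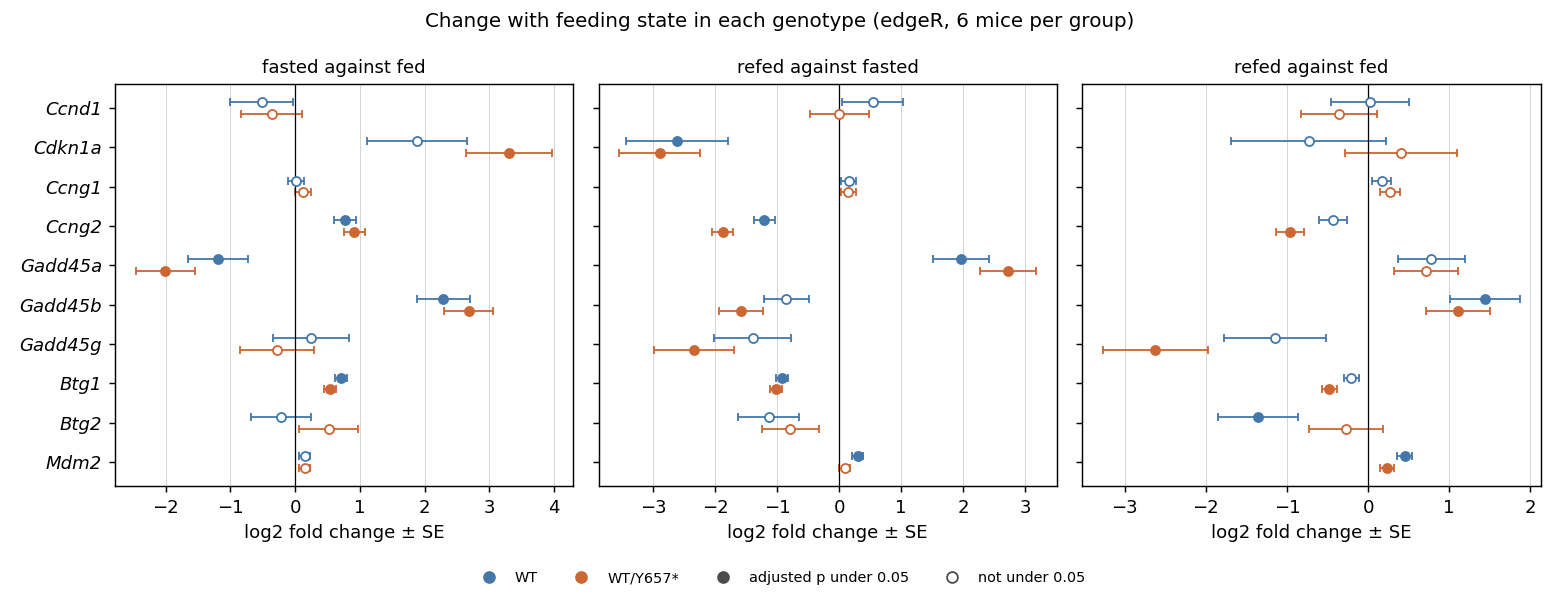
Log2 fold changes with standard errors for fasted against fed, refed against fasted and refed against fed mice, WT and WT/Y657* side by side, with filled points for an adjusted p under 0.05. *Btg1*, *Ccng2* and *Gadd45b* lie right of 0 on fasting and left of 0 on refeeding in both genotypes, *Gadd45a* does the opposite, and *Ccng1* stays within 0.27 of 0 throughout.

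Among the cell cycle inhibitors, *Cdkn1a* covered the widest range. In fed WT mice its lowest, median and highest values were 0.467, 0.902 and 1.39 CPM, and in fed WT/Y657* mice 0.674, 1.505 and 3.81 CPM. After the fast they were 0.952, 2.86 and 7.37 CPM in WT and 1.93, 13.4 and 59.2 CPM in WT/Y657* mice. After refeeding they were 0.309, 0.461 and 0.822 CPM in WT and 0.710, 1.19 and 6.995 CPM in WT/Y657* mice. Fasted WT/Y657* mice thus held the highest values and refed WT mice the lowest, and all 6 refed WT mice lay below all 6 fasted WT mice. On fasting *Cdkn1a* rose in WT/Y657* mice, by 3.30 on the log2 scale (standard error, SE, 0.67, adjusted p = 0.000253, edgeR), and 4 of 6 fasted mice lay above every fed one. In WT mice the fasting value was 1.88 (SE 0.78, adjusted p = 0.0638, edgeR), which did not pass. It passed in 4 of the 7 other settings that could test it, with adjusted p from 0.0176 (only the fed and fasted WT libraries) to 0.114 (no filter) by edgeR, and 0.0182 by DESeq2. On refeeding *Cdkn1a* fell by 2.61 on the log2 scale in WT (SE 0.82, adjusted p = 0.0149) and by 2.89 in WT/Y657* mice (SE 0.65, adjusted p = 0.000840, edgeR). Without mouse ONF_WT_824, the fasted WT mouse with the highest level, the WT value was -2.23 (adjusted p = 0.0508, edgeR).

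The fasted level of *Cdkn1a* also differed between the mouse number series. In fasted WT mice the lower series measured 4.42, 5.68 and 7.37 CPM and the higher series 0.952, 1.23 and 1.31 CPM. In fasted WT/Y657* mice the lower series measured 17.3, 30.3 and 59.2 CPM and the higher series 1.93, 3.60 and 9.58 CPM. The fasted WT mice of the higher series lay within the fed WT range of 0.467 to 1.39 CPM. Of the fasted WT/Y657* mice of that series, those at 1.93 and 3.60 CPM lay within the fed WT/Y657* range of 0.674 to 3.81 CPM. The fasting values above therefore rested mainly on the lower series. The series did not overlap in either genotype after fasting, while in refed mice they did. Refeeding accordingly changed *Cdkn1a* by -3.46 (WT) and -4.17 (WT/Y657*) log2 units in the lower series and by -0.70 and -0.96 in the higher series (differences of mean log2 CPM, 3 mice against 3, not tested). The higher series values also compare separate number blocks. The 15 core clock genes split by the same series after fasting. Their median log2 difference from the mean of the other mice of the group was -0.59 to -0.10 in the lower and 0.36 to 0.49 in the higher series of WT mice, and -0.80 to 0.14 and 0.34 to 0.46 in WT/Y657* mice. In refed mice the series overlapped for this measure too. What sets the series apart is not given in the labels, and the part of the series or of the clock genes in the level of *Cdkn1a* was not tested.

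**Figure D3:**
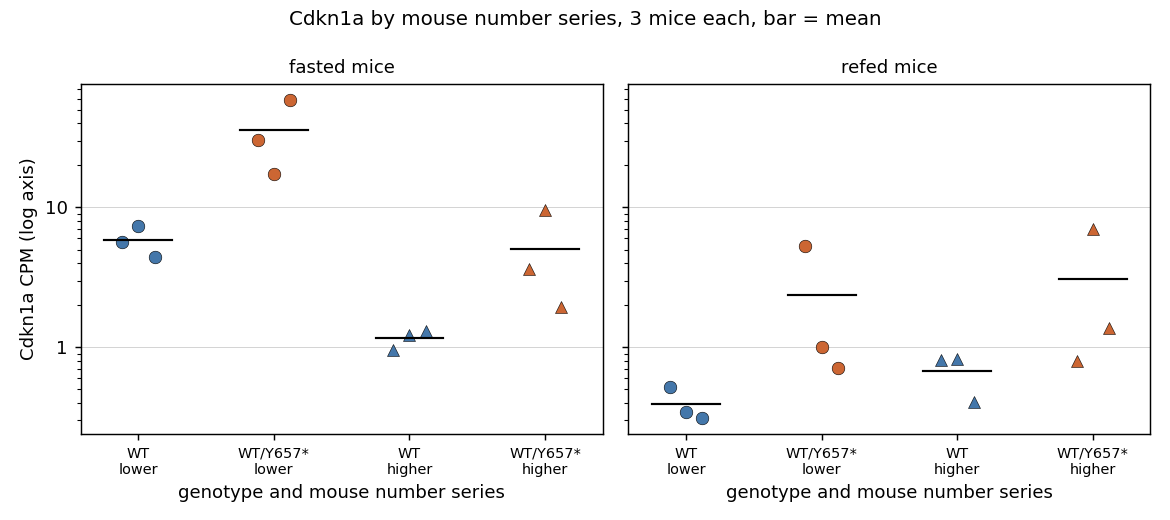
*Cdkn1a* in CPM on a log axis in fasted and refed mice, split by genotype and mouse number series with 3 mice each and a bar at the mean. WT/Y657* mice lie above WT mice of the same series after fasting, with means of 35.6 against 5.83 CPM in the lower and 5.04 against 1.16 CPM in the higher series.

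The cyclins behaved differently from each other. *Ccnd1* was at 20.1, 27.8 and 47.6 CPM (lowest, median, highest) in fed WT mice and at 20.1, 24.7 and 93.4 CPM in fed WT/Y657* mice. It was at 17.04, 23.2 and 27.05 CPM in fasted WT and at 11.8, 15.2 and 125 CPM in fasted WT/Y657* mice, and at 26.2, 29.7 and 48.5 CPM and 23.8, 27.1 and 70.0 CPM in the refed groups. The medians were lowest after fasting in both genotypes, but the groups overlapped and single WT/Y657* mice lay far above the rest. *Ccnd1* was called in no comparison. In WT/Y657* mice the fasting value was -0.36 (SE 0.47, adjusted p = 0.602, edgeR). Without mouse ONF_MT_827, which alone held 125 CPM, it was -1.54, and without mouse ALC_MT_866, the highest fed one, 0.02. The value of -1.54 was called (adjusted p = 0.00145, edgeR), as it was when mouse RF6_MT_898 was left out as well (adjusted p = 0.000491), a choice made after seeing the data.

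*Ccng2*, an atypical cyclin associated with arrest, rose on fasting and fell on refeeding in both genotypes. It measured 8.62, 10.7 and 12.1 CPM in fed, 14.2, 18.8 and 20.7 CPM in fasted and 5.26, 7.63 and 10.6 CPM in refed WT mice. In WT/Y657* mice the values were 11.4, 13.5 and 14.6 CPM fed, 17.2, 22.96 and 35.9 CPM fasted and 5.33, 6.10 and 9.82 CPM refed. Fasted mice stood above every fed and every refed mouse of their genotype. The log2 fold change on fasting was 0.77 (SE 0.17, adjusted p = 0.000417) in WT and 0.91 (SE 0.16, adjusted p = 3.0e-05) in WT/Y657* mice, and on refeeding it was -1.20 (SE 0.17, adjusted p = 9.0e-07) and -1.87 (SE 0.17, adjusted p = 1.2e-10, edgeR). *Ccng2* was lower in refed than in fed WT/Y657* mice, at -0.96 (adjusted p = 5.8e-05, edgeR).

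*Ccng1*, which encodes a cyclin that recruits a phosphatase to Mdm2, was the steadiest gene of the set. Its group means ran from 48.5 ± 3.32 CPM in fed WT mice (mean ± SD, n = 6) to 61.2 ± 10.7 CPM in refed WT/Y657* mice (n = 6), and it was called in no comparison. The highest values were 78.3 CPM in mouse RF6_MT_898 and 75.9 CPM in mouse ONF_MT_827.

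The Gadd45 genes, which encode small stress proteins that bind p21, Cdk1 and MAP kinase kinase kinases, moved in different directions. *Gadd45b* measured 0.302, 0.653 and 1.35 CPM in fed, 2.09, 2.91 and 6.31 CPM in fasted and 0.309, 2.09 and 3.02 CPM in refed WT mice. WT/Y657* mice had 0.315, 0.877 and 1.88 CPM fed, 5.33, 6.77 and 7.87 CPM fasted and 1.501, 1.99 and 3.76 CPM refed. All fasted mice exceeded all fed mice of their genotype, and the refed medians lay between. *Gadd45b* rose on fasting with a log2 fold change of 2.29 (SE 0.41, adjusted p = 4.4e-05) in WT and, in the WT/Y657* groups, 2.68 (SE 0.38, adjusted p = 9.0e-07, edgeR). On refeeding it fell by 1.58 in WT/Y657* mice (SE 0.35, adjusted p = 0.000660, edgeR), where the groups did not overlap, and the WT value of -0.85 was not called. Refed and fed mice overlapped, with 4 of 6 refed WT and 3 of 6 refed WT/Y657* mice above every fed one. On average the refed groups were higher, with values of 1.44 in WT (adjusted p = 0.0105) and 1.11 in WT/Y657* mice (adjusted p = 0.0339, edgeR). The latter was lost with no filter and with only the fed and refed WT/Y657* libraries (adjusted p of 0.0700 and 0.0632, edgeR).

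*Gadd45a* took the opposite course. It measured 2.54, 3.07 and 6.96 CPM in fed, 1.12, 1.73 and 2.08 CPM in fasted and 4.57, 5.23 and 12.5 CPM in refed WT mice, and 3.05, 5.66 and 9.62 CPM, 1.005, 1.38 and 2.46 CPM and 2.69, 5.12 and 28.7 CPM in the same order in WT/Y657* mice. Every fasted mouse lay below every fed and every refed mouse of its genotype. On fasting *Gadd45a* changed by -1.19 (SE 0.47, adjusted p = 0.0495) in WT and by -2.01 (SE 0.46, adjusted p = 0.000865) in WT/Y657* mice, and on refeeding it rose by 1.97 (SE 0.45, adjusted p = 0.00107) and 2.72 (SE 0.45, adjusted p = 1.9e-05, edgeR). The WT fasting call lay at the threshold and was lost when any of 9 mice was left out, for example at -0.91 (adjusted p = 0.160, edgeR) without mouse ALC_WT_847.

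*Gadd45g* was the most variable of the Gadd45 genes in fed mice, with 2.43, 13.1 and 22.7 CPM in WT and 3.76, 12.3 and 61.0 CPM in WT/Y657* mice. It was at 6.46, 14.8 and 20.97 CPM in fasted WT and at 3.62, 15.5 and 33.6 CPM in fasted WT/Y657* mice. In refed mice it was at 3.40, 4.49 and 13.6 CPM in WT and at 2.40, 3.13 and 5.65 CPM in WT/Y657* mice, the lowest medians of the 6 groups. *Gadd45g* fell by 2.34 log2 units on refeeding in WT/Y657* mice (SE 0.65, adjusted p = 0.00588, edgeR), and the WT value of -1.39 did not pass (adjusted p = 0.0914). The refed WT/Y657* group was also lower than the fed one, at -2.62 (SE 0.64, adjusted p = 0.00292, edgeR), with 5 of 6 refed mice below every fed one.

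*Btg1* and *Btg2* encode antiproliferative proteins that recruit the CCR4-NOT deadenylase to messenger RNA. *Btg1* measured 33.8, 37.8 and 48.0 CPM in fed, 56.0, 65.8 and 73.9 CPM in fasted and 30.7, 33.8 and 40.7 CPM in refed WT mice. The WT/Y657* groups measured 39.4, 48.5 and 56.0 CPM fed, 58.8, 71.7 and 80.6 CPM fasted and 32.2, 34.6 and 39.0 CPM refed. All fasted mice exceeded all fed and all refed mice of their genotype. *Btg1* rose on fasting by 0.71 (SE 0.094, adjusted p = 1.9e-07) in WT and by 0.54 (SE 0.093, adjusted p = 1.8e-05) in WT/Y657* mice, and fell on refeeding by 0.91 (SE 0.094, adjusted p = 2.2e-09) and 1.02 (SE 0.094, adjusted p = 1.5e-10, edgeR). These calls held in every setting tried. *Btg1* was also lower in refed than in fed WT/Y657* mice, at -0.47 (adjusted p = 0.000219, edgeR).

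*Btg2* measured 7.18, 14.5 and 20.3 CPM in fed, 6.28, 10.99 and 20.1 CPM in fasted and 3.94, 5.49 and 6.49 CPM in refed WT mice. Refed WT mice lay below all fed WT mice, at a log2 fold change of -1.35 (SE 0.49, adjusted p = 0.0387, edgeR). This call was lost without any of 9 mice, with adjusted p up to 0.0879 (edgeR). In WT/Y657* mice *Btg2* was at 5.82, 14.8 and 20.8 CPM fed, 7.10, 13.9 and 54.7 CPM fasted and 3.23, 6.38 and 29.4 CPM refed, and no comparison of feeding states was called. The values of 54.7 and 29.4 CPM were those of mice ONF_MT_827 and RF6_MT_898.

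*Mdm2* moved little but with small spread. Its medians were 28.96, 33.6 and 42.6 CPM in fed, fasted and refed WT mice and 35.2, 36.8 and 42.5 CPM in the same WT/Y657* groups. It rose on refeeding in WT mice by 0.30 (SE 0.089, adjusted p = 0.00838, edgeR) and was higher in refed than in fed mice by 0.45 in WT (adjusted p = 0.000224) and by 0.24 in WT/Y657* mice (adjusted p = 0.0443, edgeR). The last value lost its call in 4 of the 8 other settings, with adjusted p up to 0.0819, and values from 0.22 to 0.28.

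Genotype was then compared within each feeding state. In fasted mice 2 of the 10 genes were called, *Cdkn1a* and *Ccng2*, both higher in WT/Y657* mice, against 13.1% of all genes tested (8.3% without mouse ONF_MT_806). In fed mice edgeR called none, against 2.37% of all genes (0.483% without mouse ALC_MT_868 and 6.35% without mouse ALC_MT_858), and 2 genes, *Btg1* and *Mdm2*, had an unadjusted p under 0.05. In refed mice edgeR again called none, against 0.0287% of all genes, and *Cdkn1a* and *Btg2* had an unadjusted p under 0.05. DESeq2 called none of the 10 genes in the fed or the refed state either. All 10 log2 fold changes were positive in fed mice, 9 in fasted and 7 in refed mice, with medians of 0.37, 0.36 and 0.11 against medians of all genes within 0.01 of 0. Among fed mice the genotypes share only the block of neighbouring numbers from ALC_WT_856 to ALC_WT_860, with 3 WT/Y657* and 2 WT mice. Within it 6 of the 10 differences in mean log2 CPM were positive, and *Ccnd1* (-0.01), *Ccng1* (-0.09), *Gadd45b* (-0.64) and *Btg2* (-0.29) were negative.

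**Figure D4:**
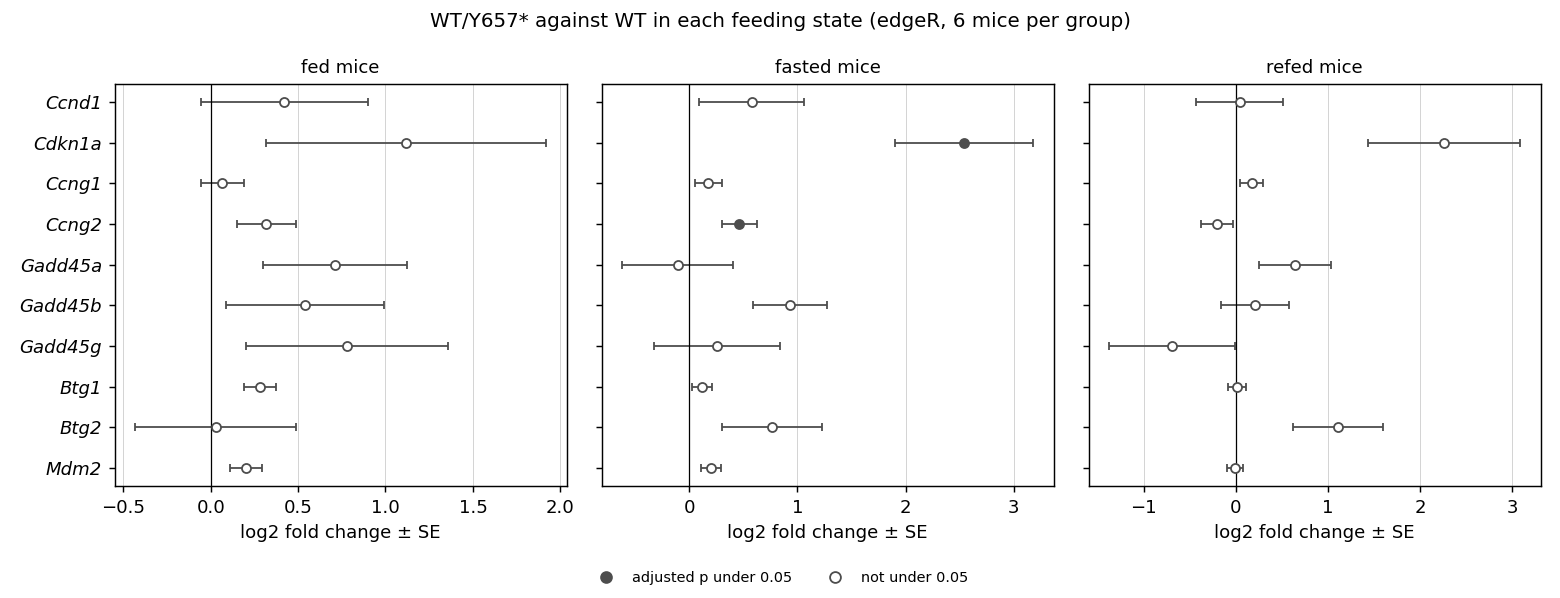
Log2 fold changes of WT/Y657* against WT mice with standard errors in fed, fasted and refed mice, with filled points for an adjusted p under 0.05. *Cdkn1a* has the largest value in each state, 1.12, 2.54 and 2.26, and only *Cdkn1a* and *Ccng2* in fasted mice are filled.

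After fasting, *Cdkn1a* averaged 20.3 ± 21.7 CPM in WT/Y657* mice and 3.49 ± 2.72 CPM in WT mice (mean ± SD, n = 6 each). The log2 value was 2.54 (SE 0.64, adjusted p = 0.00792, edgeR), a 5.81-fold difference, and 4 of the 6 WT/Y657* mice lay above every WT mouse. Within the lower series the means were 35.6 and 5.83 CPM, and within the higher series 5.04 and 1.16 CPM, without overlap of the genotypes in either (3 mice each). The difference in mean log2 CPM was 2.43 in the lower and 1.70 in the higher series. With series as a covariate the fold change was 2.41 (adjusted p = 0.00525, edgeR), and without mouse ONF_MT_827, the highest, it was 1.83 (adjusted p = 0.0495). When the 12 fasted libraries were filtered, scaled and fitted alone it was 2.56 with a larger SE of 0.87 and was not called (adjusted p = 0.0848, edgeR).

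In the other states *Cdkn1a* leaned the same way without passing. The log2 fold change was 1.12 (SE 0.80, adjusted p = 0.495) in fed and 2.26 (SE 0.82, adjusted p = 0.366) in refed mice by edgeR. The refed means were 2.70 ± 2.74 CPM in WT/Y657* and 0.534 ± 0.229 CPM in WT mice (n = 6 each), with mice RF6_MT_810 and RF6_MT_898 at 5.33 and 6.995 CPM and the other 4 WT/Y657* mice between 0.710 and 1.38 CPM. In fed mice the values of 3.49 and 3.81 CPM in mice ALC_MT_866 and ALC_MT_868 were the highest, and among the 5 mice numbered from ALC_WT_856 to ALC_WT_860, which include both genotypes, the means were 1.13 CPM in 3 WT/Y657* and 0.902 CPM in 2 WT mice.

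*Ccng2* averaged 24.7 ± 7.45 CPM in fasted WT/Y657* and 18.04 ± 2.33 CPM in fasted WT mice (n = 6 each), a log2 difference of 0.46 (SE 0.16, adjusted p = 0.049993, edgeR) that lay just inside the threshold. It lost its call in 4 of the 9 other settings and when any of 8 mice was left out, and was 0.32 (adjusted p = 0.190, edgeR) without mouse ONF_MT_827. *Gadd45b* averaged 6.70 ± 1.16 against 3.48 ± 1.66 CPM in the same groups, a value of 0.93 (SE 0.34, adjusted p = 0.0664, edgeR) that was not called. It was called with only the fasted libraries (adjusted p = 0.0163, edgeR), with series as a covariate (0.0469) and without mouse ONF_WT_807. *Btg2* stood at 0.77 (adjusted p = 0.289, edgeR) and at 0.13 without mouse ONF_MT_827. *Ccnd1* stood at 0.58 (adjusted p = 0.482, edgeR) with all mice and at -0.61 (adjusted p = 0.315) without mouse ONF_MT_827, so its sign rested on that mouse.

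Of the fed values, *Btg1* came closest to the threshold, at 48.5 ± 6.21 CPM in WT/Y657* and 39.9 ± 5.71 CPM in WT mice (n = 6 each), a log2 fold change of 0.28 (SE 0.094, adjusted p = 0.0893, edgeR). Scaling by library size alone gave 0.38 and a call (adjusted p = 0.0274). Among mice ALC_WT_856 to ALC_WT_860 the difference in mean log2 CPM was 0.094 (3 against 2 mice).

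Whether the response to feeding differed by genotype was tested directly. No member was called by edgeR for fasting (4.35% of all genes were) or for refeeding (2.06%), nor by DESeq2, and 0 and 1 of the 10 had an unadjusted p under 0.05. The one was *Ccng2* on refeeding, where the fall was larger in WT/Y657* mice by a difference of -0.67 (SE 0.24, adjusted p = 0.137, edgeR). For *Cdkn1a* the difference was 1.42 (SE 1.04, adjusted p = 0.484) on fasting and -0.28 (SE 1.13, adjusted p = 0.944) on refeeding, so the call of *Cdkn1a* on fasting in WT/Y657* mice alone is not shown to be a difference between genotypes. The standard errors leave differences of 1 log2 unit either way undetectable for *Cdkn1a* on refeeding.

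Single mice stood apart for 1 or more members. Fasted mouse ONF_MT_827 was the highest of its group for 7 of the 10 genes, with *Ccnd1* at 9.29, *Cdkn1a* at 6.18 and *Btg2* at 4.11 times the median of the other 5 mice. Refed mouse RF6_MT_898 was the highest for 6 of 10, with *Cdkn1a* at 6.99, *Btg2* at 4.62 and *Ccnd1* at 2.71 times the median of the others. Refed mouse RF6_MT_810 stood out for *Gadd45a* (6.38 times) and *Cdkn1a* (5.33 times), and fed mice ALC_MT_866 and ALC_MT_868 for *Ccnd1* (3.90 and 2.93 times). *Mdm2* and *Btg1* in these 5 mice were between 0.829 and 1.18 times the median of the others. Mice outside these 5 stood out too. Fed mouse ALC_MT_869 was the highest of its group for 4 of 10, with *Gadd45g* at 8.83 times the median of the others. Fed WT mouse ALC_WT_850 was the highest for 5 of 10, with *Gadd45g* at 2.16 and *Cdkn1a* at 1.91 times. Other measures also differed in some of the 5 mice, and in mice outside them. The 13 immediate early genes had a median log2 difference from the mean of the other mice of 0.84 in mouse ONF_MT_827 and 0.825 in mouse RF6_MT_898, and 18 S and M phase genes one of 0.79 in mouse ONF_MT_827 and 0.76 in mouse ALC_MT_868. Mouse RF6_MT_898 had the highest sums of its group for the markers of B cells (61.6 CPM, group median 7.88), neutrophils (28.3, median 2.57) and Kupffer cells and macrophages (647, median 307). Mice ALC_MT_866 and ALC_MT_868 had Kupffer cell and macrophage sums of 598 and 706.95 CPM against a median of 450 in fed WT/Y657* and of 253 in fed WT mice. In mouse ONF_MT_827 that sum was 403 CPM, inside the fasted WT range of 254 to 470. Its stellate cell and fibroblast sum was 562 CPM, above the 377 to 443 CPM of the other fasted WT/Y657* mice and the 349 to 421.5 CPM of fasted WT mice. Its T and NK cell sum of 5.19 CPM and its neutrophil sum of 4.14 CPM also lay above the highest fasted WT mouse (1.73 and 2.46), and each was second in its own group to mouse ONF_MT_806. Mice ALC_MT_866 and RF6_MT_898 had the highest stellate cell and fibroblast sums of their groups as well, at 610 CPM (others 405 to 565) and 419 CPM (others 304 to 366). T and NK cell sums of 6.83 and 7.20 CPM in mice ALC_MT_866 and ALC_MT_868 compared with at most 1.14 CPM in fed WT mice. The core clock genes stood at -0.80 in mouse ONF_MT_827 and at -0.70 in mouse ALC_MT_866, the lowest of their groups on the log2 scale of the lists above. Refed mouse RF6_WT_828 had the highest sums of its group for Kupffer cells and macrophages (484 CPM, group median 262) and neutrophils (20.2, median 1.53). Its *Cdkn1a*, at 0.309 CPM, was the lowest of its group, *Ccnd1* was 28.8 CPM (median 29.7) and *Btg2*, at 6.49 CPM, the highest. Fed mice ALC_MT_859 and ALC_MT_869 had Kupffer cell and macrophage sums of 451 and 450 CPM, above the highest fed WT mouse (306). Their *Ccnd1* was 25.4 and 23.955 CPM (group median 24.7). The part of these cell markers in the levels of *Ccnd1*, *Cdkn1a* and *Btg2* was not tested.

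Some non-parenchymal markers also moved with feeding state. Of all genes, 32% and 32.9% were called on fasting and 30.2% and 31.3% on refeeding in WT and WT/Y657* mice. On fasting 3 of 7 endothelial and 2 of 4 B cell markers were called higher in WT and none in WT/Y657* mice. Stellate cell and fibroblast markers had 2 and 3 of 7 called lower, and cholangiocyte and erythroid markers 1 each in both genotypes. No Kupffer cell, neutrophil or T and NK cell marker was called on fasting. On refeeding 3 of 7 endothelial markers were called lower in WT and 4 of 7 in WT/Y657* mice, with summed levels of 514 to 570 and 464 to 584 CPM fasted and 406 to 531 and 391 to 438 CPM refed. Stellate cell and fibroblast markers had 4 of 7 called in WT (1 higher, 3 lower) and 3 of 7 in WT/Y657* mice (1 higher, 2 lower). None of 6 Kupffer cell, 5 cholangiocyte, 2 neutrophil, 3 T and NK cell or 4 B cell markers tested was called on refeeding in either genotype, and erythroid markers had 1 of 3 called lower in WT mice. T and NK cell markers stayed at or below 7.20 CPM in sum in every mouse. Of 7 hepatocyte markers, 2 were called on fasting and 2 on refeeding in each genotype. Between fed genotypes 2 T and NK cell, 1 B cell and 1 stellate marker were called, all higher in WT/Y657* mice. Between fasted genotypes 1 endothelial and 1 stellate marker were called, both higher in WT/Y657* mice, and no marker of the other cell types. The part of cell composition in the members' values was not tested.

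The surrounding pathways were followed in gene lists without the 10 members, described here by counts and not tested as sets. As background, edgeR called 32% of all genes in WT and 32.9% in WT/Y657* mice on fasting, 30.2% and 31.3% on refeeding and 13.1% between fasted genotypes. Of 31 other p53-responsive genes, 8 were called on fasting in WT mice (6 higher) and 12 in WT/Y657* mice (8 higher), and on refeeding 13 (9 lower) and 12 (9 lower). The smallest p on fasting were those of *Ei24*, which encodes an endoplasmic reticulum protein induced by p53, at 0.85 in WT and 0.83 in WT/Y657* mice, and *Perp*, which encodes a desmosome protein, at 0.68 and 0.77. Between fasted genotypes 5 of the 31 were called, 3 higher and 2 lower, a share of 16.1% beside the 13.1% of all genes. They included *Rps27l* at 0.59 (SE 0.094, adjusted p = 6.9e-05), the cell death gene *Bax* at 0.49 (SE 0.14, adjusted p = 0.0135) and the peptide transporter gene *Tap1* at -0.72 (SE 0.16, adjusted p = 0.00338, edgeR). The list as a whole stayed near 0, with a median of 0.048. In fed mice 1 was called, *Fas* at -0.35, and in refed mice edgeR called none.

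Of 14 genes for p53 and its regulators, 2 were called between fasted genotypes, *Rpl11* at 0.36 (adjusted p = 0.000374) and *Rpl5* at 0.40 (adjusted p = 0.000608, edgeR), ribosomal proteins known to bind Mdm2. Ribosomal protein genes have many processed copies among which reads can be split, so these values, and that of *Rps27l*, are uncertain. *Trp53*, the p53 gene, was called in WT/Y657* mice, at -0.30 (SE 0.11, adjusted p = 0.0364) on fasting and 0.49 (SE 0.11, adjusted p = 0.000930, edgeR) on refeeding. These 2 values alone do not show a difference between genotypes. In all, 2 of the 14 were called on fasting and 5 on refeeding in WT mice, and 4 and 2 in WT/Y657* mice.

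Among 19 other G1 cyclins, kinases, inhibitors and pocket proteins, 9 were called on fasting in WT (5 higher) and 5 in WT/Y657* mice (2 higher). *E2f2*, a transcription factor of the G1 to S transition, fell in both, by 1.39 and 1.34 log2 units (adjusted p = 0.000151 and 0.000285, edgeR). The D-type cyclin gene *Ccnd3* rose on fasting in WT mice by 0.49 and fell on refeeding by 0.72 (adjusted p = 0.000166 and 4.7e-07, edgeR), and *Rbl2*, which encodes the pocket protein p130, fell on refeeding by 0.65 in WT and 0.49 in WT/Y657* mice. The refeeding response of *Ccnd3* itself differed by genotype, at 0.52 (SE 0.14, adjusted p = 0.0369, edgeR). On refeeding 5 of the list were called in each genotype, and between fasted genotypes 1, *Rbl2*, at -0.33 (adjusted p = 0.0134, edgeR). None of the 19 was called by edgeR between fed or refed genotypes.

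In the list of 18 S and M phase genes, 5 were called lower and none higher on fasting in WT mice, and 9 lower and none higher in WT/Y657* mice. The smallest p were those of *Rrm2*, a ribonucleotide reductase gene, in WT mice (-1.28, adjusted p = 0.00115, edgeR) and of the replication licensing gene *Mcm5* in WT/Y657* mice, with *Mcm5* at -0.91 in WT and -2.06 in WT/Y657* animals (adjusted p = 0.0163 and 1.1e-06) and *Mcm6* at -0.80 and -1.35 (adjusted p = 0.00986 and 3.2e-05, edgeR). On refeeding 4 were called in WT (3 higher) and 6 in WT/Y657* mice (5 higher), with *Mcm5* rising by 1.78 in the latter (adjusted p = 1.5e-05, edgeR). Between fasted genotypes 2 were called, *Mcm4* at -0.53 and *Ccnb2* at 2.55, the latter at mean levels of 0.875 and 0.151 CPM.

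Among 12 gene identifiers tested for 11 other BTG/TOB and CCR4-NOT genes, *Btg3* went against *Btg1* on fasting in WT mice only. It fell on fasting in WT mice, from a mean of 0.925 to 0.160 CPM (log2 fold change -2.39, adjusted p = 0.000128, edgeR), and was higher in fasted WT/Y657* than in fasted WT mice, at 1.07 against 0.160 CPM (2.60, adjusted p = 0.000254). The genotype difference of its responses was itself called, at 2.68 for fasting and -2.80 for refeeding (adjusted p = 0.00808 and 0.0104, edgeR), at mean levels no higher than 1.07 CPM in the groups named. *Tob1* was lower in WT/Y657* than in WT mice after fasting, at -0.73 (adjusted p = 0.000663, edgeR). On fasting 5 of the 12 were called in WT (1 higher) and 3 in WT/Y657* mice (all lower), on refeeding 5 (3 higher) and 3 (1 higher), and between fasted genotypes 3 (2 higher).

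FOXO factors and other FOXO-responsive genes moved most often on refeeding, when 13 of 19 were called in WT (12 lower) and 13 of 19 in WT/Y657* mice (all lower), beside 30.2% and 31.3% of all genes. *Pdk4*, a kinase gene that restrains pyruvate dehydrogenase, fell by 2.73 and 3.02 log2 units and the autophagy gene *Gabarapl1* by 0.88 and 0.92. On fasting 8 were called in WT (6 higher) and 11 in WT/Y657* mice (8 higher), and the mitophagy gene *Bnip3* rose by 1.01 and 1.51. Between fasted genotypes 4 were called, *Bnip3* (0.47) and *Map1lc3b* (0.33) among the 2 that were higher and *Foxo3* (-0.34) among the 2 that were lower.

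Of 10 glucocorticoid-responsive genes, 2 were called higher on fasting in WT and 8 in WT/Y657* mice, none lower, beside 32% and 32.9% of all genes. For 4 of them the difference between genotypes in the fasting response was called, beside 4.35% of all genes. That difference includes the fed genotypes, where 2 of the 10 were called, both lower in WT/Y657* mice, beside 2.37% of all genes. The list median was -0.24 between fed and 0.56 between fasted genotypes, and fed genotype nearly followed mouse number. *Fkbp5*, a chaperone gene of the glucocorticoid receptor, rose by 0.74 in WT and 1.81 in WT/Y657* mice, a difference of 1.07 (SE 0.27, adjusted p = 0.0208, edgeR). Between fasted genotypes 3 were called, all higher in WT/Y657* mice, *Fkbp5* at 1.16, *Zbtb16* at 1.78 and *Tsc22d3* at 0.83. On refeeding 3 and 5 were called, all lower. These values are given beside *Cdkn1a* and *Ccng2*, which were also higher in fasted WT/Y657* mice, and no relation between them was tested.

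Of the 13 immediate early genes, 2 were called on fasting in WT mice, *Jun* and *Nr4a1*, both higher, and none in WT/Y657* mice by edgeR. On refeeding 6 were called in WT and 3 in WT/Y657* mice, all lower, with *Nr4a1* at -2.67 and -1.675, and between fasted genotypes *Klf6* was higher in WT/Y657* mice at 0.70 (adjusted p = 0.0132, edgeR). Of 15 core clock genes, 3 and 6 were called on fasting and 6 and 10 on refeeding in WT and WT/Y657* mice, with *Per2* rising by 1.85 and 1.91 on refeeding and *Npas2* changing by -4.05 and -3.55. Between fasted genotypes *Cry2* was among those called, at -0.63.

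Variation among mice of a group was used to find the genes most like *Ccnd1* and *Cdkn1a*. Log2 CPM was centred on the group means, and Pearson's r over the 36 mice was computed with each of 12591 other genes at a mean of at least 1 CPM. The genes most like *Ccnd1* were *Klf6* (r = 0.80, Spearman's rho 0.70), *Rnf145* (r = 0.78, rho 0.67) and *2010003K11Rik* (r = 0.77, rho 0.69). Without mice ONF_MT_827 and ALC_MT_866, the farthest from their groups for *Ccnd1*, r was 0.66, 0.72 and 0.68. The genes most like *Cdkn1a* were *Chka*, which encodes a choline kinase (r = 0.84, rho 0.82), *Lgalsl* (r = 0.79, rho 0.70) and the carboxypeptidase M gene *Cpm* (r = 0.78, rho 0.67), and without mice ONF_MT_923 and ONF_MT_827 r was 0.80, 0.70 and 0.66. These are the highest of many coefficients and are given as a description, and the mice share library depth and mouse number series.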

How the data were processed

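Liver total RNA of 36 mice was sequenced by the authors with stranded libraries and short single-end reads. The deposited table holds estimated counts per gene without normalization, of which 3.29% of non-zero values were not whole (tolerance 1e-06), and these were rounded. The labels name Cuffdiff, SAMtools, featureCounts and edgeR without versions, speak of human genes, and name build mm9, whereas 99.7% of the gene identifiers found in GENCODE M21 had loci overlapping their GRCm38 position. Coordinates were therefore taken from GRCm38. A second deposited table of fitted means holds no spread between mice and was not used.

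The count model was edgeR 4.0.16 under R 4.3.3, with filterByExpr by group (13945 genes), TMM, glmQLFit with robust dispersions and 1 coefficient per group over all 36 libraries, and glmQLFTest, two-sided. The common biological coefficient of variation was 0.181, and no pair of mice in a group agreed within sampling noise (in 90 pairs, chi-square divided by its degrees of freedom was at least 6.70). Log2 CPM used a prior count of 2. The fit was also run on counts simulated from its own fitted dispersions. These held no mouse number series and no mice set apart, so that run cannot speak to either. The labels do not say whether mice of a group shared a litter or cage, so p-values measure the spread between these mice.

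Members, gene lists and tests were chosen with earlier results of these data known. Named were every member, per list at most 3 genes with the smallest p in the comparison described, and the 3 genes most like *Ccnd1* and *Cdkn1a*. Alternatives were DESeq2 1.42.0, the likelihood ratio test, DESeq2 size factors, library size alone, no filter, at least 10 counts in every library, only the groups compared, mouse number series as a covariate and leaving out each mouse. The covariate separated the lower from the higher series of fasted and refed mice and 3 blocks of neighbouring numbers among fed mice. It held the higher fasted and the higher refed mice as 1 series, although their numbers do not interleave. No block holds both fed and other mice, so it gives no value for comparisons of fed with fasted or refed mice. Leaving out mice ONF_MT_827 and RF6_MT_898 together was added after seeing the data. A withheld result of the gene lists is not reported here.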

Additional observations from a re-analysis of the deposited data

Results flagged for a closer look

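Of the 60 sets of 6 mice (10 genes in 6 groups), 9 held a mouse whose distance from its nearest neighbour, as a share of the range of the group, exceeded Dixon's 95% critical value for 6 samples. For independent, normally distributed values chance alone passes that value in about 1 in 20 groups. The rule was applied to CPM without logs, and the 60 sets share the same mice. That rate is therefore no benchmark for the 9 sets. *Ccnd1* stood out 3 times, at 125 CPM in fasted WT/Y657* mouse ONF_MT_827 (next 17.9), at 70.0 CPM in refed WT/Y657* mouse RF6_MT_898 (next 28.8) and at 48.5 CPM in refed WT mouse RF6_WT_816 (next 33.9). *Gadd45a* stood out at 6.96 CPM in fed WT mouse ALC_WT_847 (next 3.92) and at 12.5 CPM in refed WT mouse RF6_WT_900 (next 5.67). *Gadd45g* did so at 13.6 CPM in refed WT mouse RF6_WT_828 (next 5.43) and at 5.65 CPM in refed WT/Y657* mouse RF6_MT_898 (next 3.50). *Btg2* was at 54.7 CPM in fasted WT/Y657* mouse ONF_MT_827 (next 19.3). *Mdm2* was low, at 33.1 CPM, in refed WT mouse RF6_WT_896 (next 41.0).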

How the results depend on the processing

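The larger changes in the number of the 10 genes called under other settings were as follows, with the number called among all genes tested in brackets. Not every smaller change is listed. Settings that change the filter or the libraries can also change how many genes are tested. Between fed genotypes it was 1 with library size alone (756 genes, against 330 in the main fit). It was 0 to 1 when 1 mouse was left out (0.483% to 6.35% of all genes). Between fasted genotypes it was 1 with DESeq2 size factors (1828 genes, against 1821 in the main fit), with no filter (1429) and with at least 10 counts in every library (1846). It was also 1 with only the groups compared (1534) and without mice ONF_MT_827 and RF6_MT_898 (1558). With mouse number series as a covariate it was 3 (2056). It was 1 to 3 when 1 mouse was left out (8.3% to 14.2% of all genes). For fasting in WT/Y657* mice it was 3 with at least 10 counts in every library (4246 genes, against 4591), where *Cdkn1a* and *Gadd45b* are not tested. Without mice ONF_MT_827 and RF6_MT_898 it was 6 (4592), against 5 in the main fit. For refeeding in WT mice it was 8 with only the groups compared (4784 genes, against 4217). For refed against fed WT/Y657* mice it was 3 with no filter (3035 genes, against 3633) and 3 with only the groups compared (2670). It was 3 to 5 when 1 mouse was left out (21.9% to 26.3% of all genes). Among the smaller changes, fasting in WT mice had 3 to 5 of the 10 genes called over the settings (3974 to 4657 genes, against 4 and 4464). Refed against fed WT mice had 2 to 4 (3201 to 4067 genes, against 3 and 3839). The cause of these shifts was not tested beyond the genes that a setting leaves out.

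*Ccnd1* changed sign between fasted genotypes, at -0.61 without mice ONF_MT_827 and RF6_MT_898, and ranged from -0.61 to 0.75 when 1 mouse was left out. Its fasting value in WT/Y657* mice then ranged from -1.54 to 0.024.

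Over all genes, the fed genotype comparison called 0 with series as a covariate (edgeR, 651 at an unadjusted p under 0.05, resting on the 5 mice of the block that both genotypes share), 30 with only the groups compared, 207 with no filter, 516 by the likelihood ratio test, 644 by DESeq2 and 756 with library size alone, against 330 (2.37% of genes), and 0.483% to 6.35% of genes when 1 mouse was left out. The refed genotype comparison called 25 by DESeq2, 18 by the likelihood ratio test, 9 with series as a covariate and 1 without mice ONF_MT_827 and RF6_MT_898, against 4. Without 1 mouse it called 1 to 6. The fasted genotype comparison called 1169 without mouse ONF_MT_806, against 1821. The genotype difference in fasting called 386 with no filter and 109 with series as a covariate, against 607, and that in refeeding 152 with no filter and 162 without mice ONF_MT_827 and RF6_MT_898, against 287, and 124 to 391 when 1 mouse was left out.

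Of 30 called member values, 30 passed by DESeq2 and 29 by the likelihood ratio test. With series as a covariate all 13 in comparisons within a feeding state or of refed with fasted mice passed. For refed against fasted mice the covariate does not part feeding state from number block in the higher series. Comparisons of fed with fasted or refed mice have no value there, as no series holds both. Leaving out 1 mouse kept 320 of 360 calls. At the lowest levels *Cdkn1a* and *Gadd45b* rest on 3 counts in a mouse, which limits what can be detected. No paired analysis was possible because mouse numbers do not repeat across groups.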
